A study of Mus musculus with 6 samples.

Results

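The genes of the mitochondrial genome and the pseudogenes of a nuclear copy of part of that genome were followed in RNA from liver non-parenchymal cells of male mice. The members were chosen by name and position: 37 genes whose symbol begins with mt-, and 7 genes on chromosome 1 whose lowest start lies in a short window that holds the copy, 44 of 53546 genes in all. The 37 comprise 2 rRNA, 22 tRNA and 13 protein genes. Wild type mice (3 libraries) were compared with SRA-/- mice (3 libraries), which lack scavenger receptor A, a macrophage receptor encoded by Msr1. Every mouse of both groups had received acetaminophen at 400 mg/kg into the peritoneum 6 h before the cells were taken, so no untreated level enters any comparison. The labels give neither strain nor age nor the number of mice behind a library, and p-values measure the spread between these samples.

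Mitochondrial DNA is transcribed from both strands into long precursors, which are cut at the tRNAs that punctuate them into rRNAs, tRNAs and the mRNAs for core subunits of respiratory complexes I, III and IV and of the ATP synthase, complex V. Stretches of mitochondrial DNA have also entered the nuclear chromosomes during evolution, where they lie as pseudogenes. A short read from such a stretch can fit both places, and featureCounts under the settings recorded in the file headers does not count a read that aligned to several places. Liver mitochondria are also where the reactive metabolite of acetaminophen binds proteins and impairs respiration.

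The chromosome 1 copy was nearly letter for letter the mitochondrial sequence. The 7 pseudogenes lie head to tail on the minus strand over 4663 bases (mm39) and match, in reversed map order, mt-Co1, mt-Co2, mt-Atp6, mt-Co3, mt-Nd3, mt-Nd4l and mt-Nd4. Transcript sequences of GENCODE vM21, matched by symbol for 44 of 44 members and of the same length as in the count files for 44 of 44, were aligned in pairs. Over 4149 aligned bases there were 7 mismatches. Of these, 6 lie at the edge of the copy, at the start of Gm29216, and the remaining 1 lies in mt-Nd3. The pairs mt-Co2 with Gm28661 (681 bases), mt-Atp6 with Gm10925 (678), mt-Co3 with Gm28437 (783), mt-Nd4l with Gm10222 (294) and the first 876 bases of mt-Nd4 with Gm28439 had 0 mismatches. In the files' coordinates the copy is also longer by 1 base between the start of mt-Nd3 and that of mt-Nd4l, a stretch that holds the tRNA gene mt-Tr. The alignment of that stretch was not analysed here.

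The mismatch in mt-Nd3 is shown because the counts of that pair are the ones that differed most between the groups. The first 90 bases of mt-Nd3 (mitochondrial genome, 9459 to 9806, plus strand) and of Gm28438 (chromosome 1, 24651856 to 24652200, minus strand, mm39) follow, 5′ to 3′, with the mismatched base in capitals. Counted from 1 at the first base of mt-Nd3 it is T3C, at position 9461 of the mitochondrial genome. It changes the third base of the first codon, and both codons stand for the same residue in the vertebrate mitochondrial code.
mt-Nd3: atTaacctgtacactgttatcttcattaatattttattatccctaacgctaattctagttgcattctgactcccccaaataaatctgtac
Gm28438: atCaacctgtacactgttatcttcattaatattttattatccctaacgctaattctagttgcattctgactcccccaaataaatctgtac

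The edge of the copy is shown because it is where the other mismatches lie. Bases 1054 to 1083 of mt-Co1 (mitochondrial genome, 5328 to 6872) and the first 30 bases of Gm29216 (chromosome 1, 24654787 to 24655278, minus strand) differ at 6 bases, in capitals, and at no aligned base after them.
mt-Co1: ggTCtAAcCggaAttgttttatccaactca
Gm29216: ggATtGGcAggaTttgttttatccaactca

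Library totals ran from 23757203 to 44003902 counts. The headers' command counts each mate of a read pair, so 3 fragments stand for 6 counts, or 0.136 to 0.253 CPM (counts per 1000000 gene counts) per library, and this floor and the intervals below cover counting error only. Markers of other cell types were present in every library. Summed genes of a hepatocyte list took 7.58%, 6.24% and 3.15% of the counts in wild type replicates 1, 2 and 3, against 5.85%, 5.08% and 9.19% in SRA-/- replicates 1, 2 and 3. Summed genes of sinusoidal endothelial cells took 0.198% to 0.446%, of Kupffer cells and macrophages 0.0696% to 0.204% and of stellate cells 0.0474% to 0.0911%, and no marker of these lists was at 0 over all libraries. Msr1, the targeted gene, had 34.5, 77.2 and 123 CPM in the wild type libraries, against 42.0, 33.8 and 38.9 CPM in those labelled SRA-/-, overlapping. The labels do not name the deleted part, so this sum over the whole gene does not check the genotype.

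Mitochondrial RNA took a large and variable part of each library, and the groups overlapped. Its share of all gene counts was 19.8%, 9.95% and 16.1% in wild type replicates 1, 2 and 3, against 11.2%, 21.1% and 6.64% in SRA-/- replicates 1, 2 and 3. SRA-/- replicate 3, the lowest, was also the library with the highest hepatocyte share (9.19%). The other libraries did not follow that order. Wild type replicate 1, at 19.8%, had the next highest hepatocyte share (7.58%), and SRA-/- replicate 2, at 21.1%, had 5.08%. The means were 15.3% ± 4.98 in wild type against 13% ± 7.39 in SRA-/- cells (SD, n = 3 each), and a two-sided exact permutation test gave p = 0.8, where 3 against 3 libraries cannot go below 0.1. Without SRA-/- replicate 3 the difference of SRA-/- minus wild type turned from -2.30 to 0.88 percentage points. Such a share cannot tell a change in the number of mitochondria-rich cells from a change in mitochondrial RNA per cell, and the part of the hepatocyte RNA in it was not tested. The widest 95% Clopper-Pearson interval of a library's share was ± 0.0207 percentage points, far narrower than the spread between libraries.

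Within this share the 2 rRNAs took 10.1%, 3.33% and 5.69% of all counts in wild type against 4.14%, 7.48% and 1.88% in SRA-/- libraries, although the protocol included depletion of ribosomal RNA. The 13 protein genes took 9.71%, 6.60% and 10.4% in wild type against 7.09%, 13.6% and 4.75% in SRA-/- libraries. All 22 tRNA genes together took 0.00907% to 0.0284% over the 6 libraries. The 7 pseudogenes took 0.0208%, 0.0161% and 0.0349% in wild type against 0.0141%, 0.0197% and 0.00617% in SRA-/- libraries. None of these 4 class shares or the whole share separated the groups, the lowest of the 5 exact permutation p-values being 0.2, for the pseudogenes, and 1 after Benjamini-Hochberg adjustment over the 5.

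**Figure D1:**
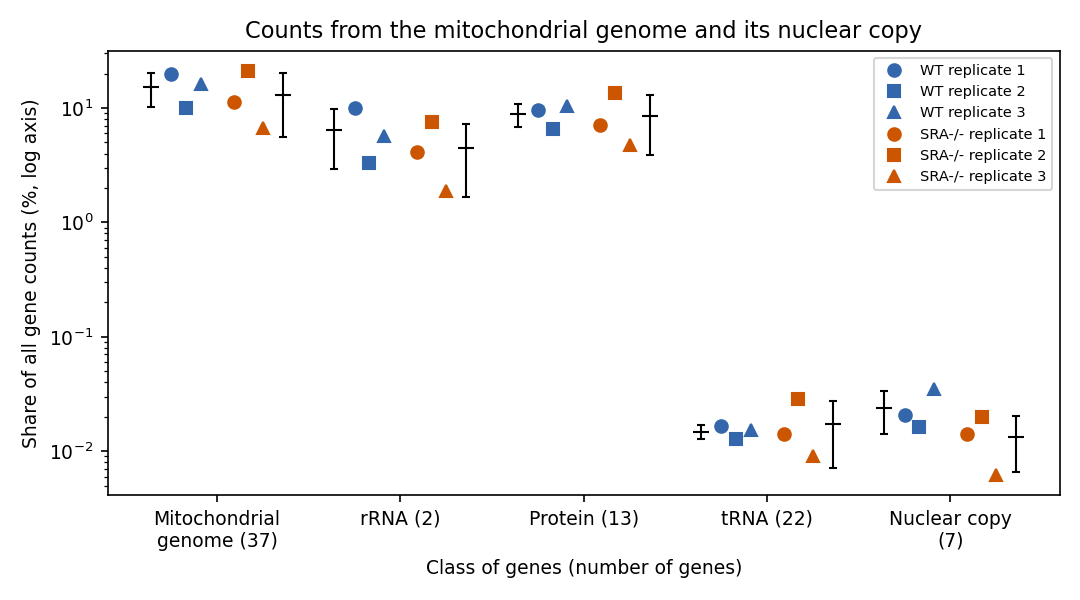
Share of all gene counts (log axis, percent) taken by the mitochondrial genome, its rRNA, protein and tRNA genes and the chromosome 1 copy, with 1 point per library and the mean with SD of each group (n = 3). Wild type and SRA-/- libraries overlap in each class, and the tRNA genes and the pseudogenes stay under 0.04%.

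Of the 44 members 26 had enough counts to be tested by edgeR's quasi-likelihood test, and the 18 that did not were all tRNA genes. Two-sided calls at an adjusted p under 0.05 were made for 0.0487% of the 20541 genes tested. Among the members 2 passed: mt-Nd3 rose in SRA-/- cells (0.0341% of tested genes were called higher) and its pseudogene Gm28438 fell (0.0146% were called lower). DESeq2 and limma-voom with quality weights called the same 2 members. Groups did not overlap in CPM for 1 member that was higher in SRA-/- cells (3.51% of tested genes) and for 3 that were lower (3.12% of tested genes, and 6.63% in either direction). The 1 was mt-Nd3, and the 3 were Gm28438 and its neighbours Gm28437 and Gm10222. The median log2 fold change of the 26 tested members was -0.15, and that of all tested genes was -0.01.

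**Figure D2:**
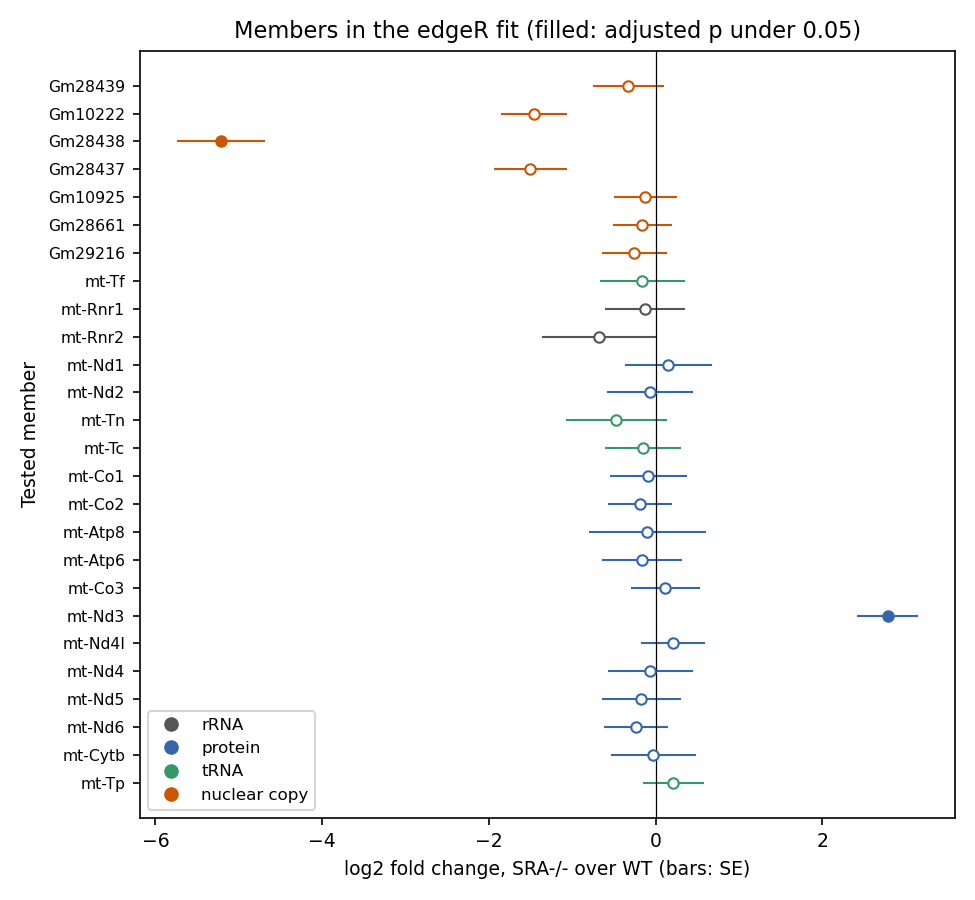
Log2 fold change of SRA-/- over wild type (edgeR, bars are SE) for the 26 tested members, coloured by class and filled where the adjusted p was under 0.05. Only mt-Nd3, at 2.78, and Gm28438, at -5.22, are filled, while Gm10222 and Gm28437 lie near -1.5.

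The rRNAs of the small and large mitochondrial ribosomal subunits overlapped between the genotypes. mt-Rnr2, the large subunit rRNA (1094 to 2675), had 86432, 25432 and 41529 CPM in wild type replicates 1, 2 and 3, against 26108, 60484 and 13427 CPM in SRA-/- replicates 1, 2 and 3. Wild type replicate 1 was highest and SRA-/- replicate 3 lowest, a 6.44-fold range. By edgeR its log2 fold change was -0.68 ± 0.69 (SE; adjusted p 0.99994), and 0.10 without wild type replicate 1. mt-Rnr1, the small subunit rRNA (70 to 1024), had 14347, 7894 and 15338 CPM in wild type against 15264, 14277 and 5345 CPM in SRA-/- libraries. It was within a narrow band of 14277 to 15338 CPM in 4 libraries and low in wild type replicate 2 and SRA-/- replicate 3. The ratio of mt-Rnr2 to mt-Rnr1 counts was 6.02, 3.22 and 2.71 in wild type against 1.71, 4.24 and 2.51 in SRA-/- libraries, again overlapping. Because the protocol included depletion of ribosomal RNA, these counts and their ratio need not be levels in the cells. The part of the depletion in them was not tested.

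Protein genes were compared with each other per length, as CPM per kb of gene. Levels fell into separate bands by position. The 5 protein genes with no part in the copied segment had means over the 6 libraries of 7730 to 14217 CPM per kb. The 6 that lie wholly within it had means of 6.88 to 62.0 CPM per kb, and no library of any of these 6 exceeded 90.9 CPM per kb, while no library of the 5 was under 3851. The 2 genes that lie partly in the segment, mt-Co1 and mt-Nd4, had 20515 and 3539 CPM per kb. Counts of the 6 genes within the segment hold only reads that aligned in 1 place, so their level is not a level of the transcript.

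mt-Co1 encodes the catalytic subunit of cytochrome c oxidase (complex IV). Among the protein genes outside or partly in the segment it had the highest level per length, above mt-Cytb in 6 of 6 libraries. The genes wholly within the segment cannot be ranked against it. It had 30600, 25439 and 42339 CPM in wild type against 28527, 44050 and 19222 CPM in SRA-/- libraries. The groups overlapped, and its 2.29-fold range over the 6 libraries was the smallest among the protein genes outside or partly in the segment. Over its 1053 bases without a copy its mean level came to 30101 CPM per kb, if every read is set against those bases alone. mt-Cytb, the cytochrome b of complex III (14145 to 15288), followed with 20308, 11997 and 16718 CPM in wild type against 12605, 27615 and 8342 CPM in SRA-/- libraries. It was above each of mt-Nd1, mt-Nd2, mt-Nd5 and mt-Nd6 per length in 6 of 6 libraries.

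Those 4 complex I genes lay side by side, at means of 7927 (mt-Nd1), 7730 (mt-Nd2), 7882 (mt-Nd5) and 7737 CPM per kb (mt-Nd6), which differ by far less than the spread of each over the libraries. mt-Nd5 had 16422, 10928 and 18361 CPM in wild type against 11364, 21865 and 7325 CPM in SRA-/- libraries. mt-Nd6 is the only protein gene on the light strand and the counting ignored strand, so its 2361 to 6416 CPM can include transcripts of the opposite strand. mt-Nd4, which has 876 of its 1378 bases in the copy, was below those 4 genes in 6 of 6 libraries. Set against its 502 bases without a copy its mean was 9715 CPM per kb.

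The libraries differed in the balance between mRNAs, in ways that did not follow genotype. The ratio of mt-Nd1 to mt-Co1 counts was 0.304 in replicate 1 of wild type and 0.331 in replicate 2 of SRA-/-, and 0.164 to 0.204 in the other 4 libraries. The ratio of mt-Nd6 to mt-Nd5 was lowest in the same libraries, at 0.219 and 0.229, and 0.286 to 0.349 in the others. These are also the libraries with the highest share of mitochondrial counts and the highest ratio of mt-Rnr2 to mt-Rnr1. These ratios were chosen after their values were seen and are given without a test.

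**Figure D3:**
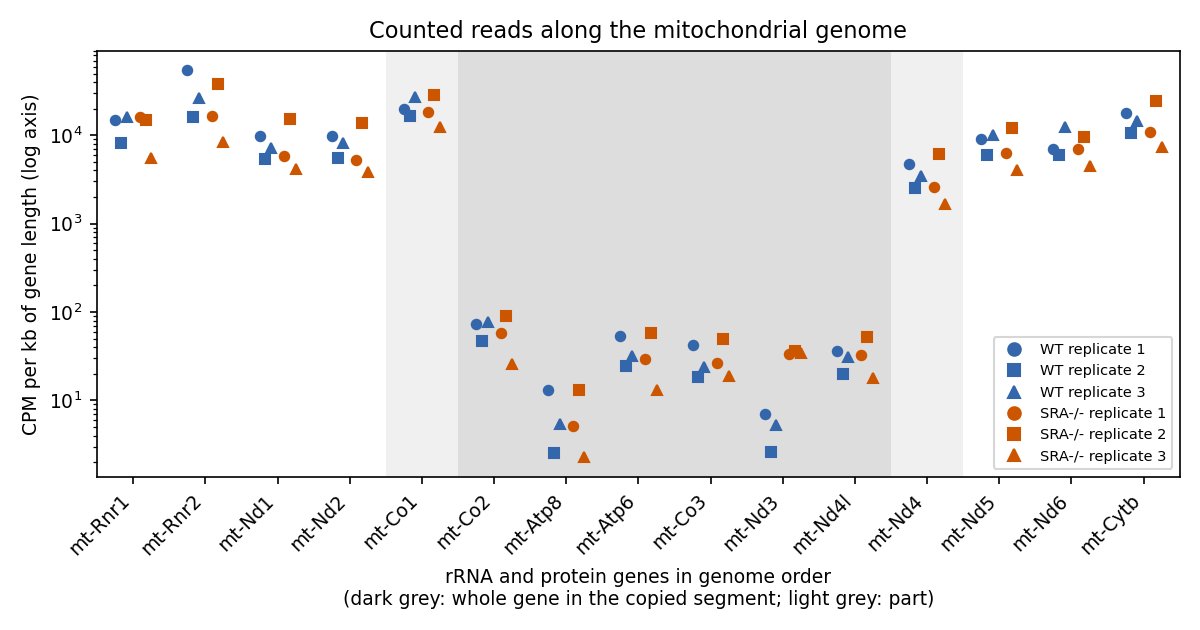
CPM per kb of gene length (log axis) of the 2 rRNA and 13 protein genes in map order, with 1 point per library. Genes wholly within the copied segment (dark grey) have means of 6.88 to 62.0 CPM per kb, genes partly within it (light grey) and outside it of 3539 CPM per kb or more, and mt-Nd3 alone separates the genotypes.

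mt-Nd3, a subunit of complex I, and Gm28438 differed in opposite directions between the genotypes. mt-Nd3 had 79, 23 and 57 counts in wild type replicates 1, 2 and 3, against 508, 380 and 281 in SRA-/- replicates 1, 2 and 3. Every SRA-/- library was higher than every wild type library, and the SRA-/- libraries lay close together, at 11.5, 12.8 and 11.8 CPM against 2.43, 0.918 and 1.83. Its means were 1.73 ± 0.76 and 12 ± 0.64 CPM (SD, n = 3 each), and edgeR gave a log2 fold change of 2.78 ± 0.36 (SE; adjusted p 0.0474). Gm28438 had 1116, 1023 and 3018 counts in wild type against 46, 79 and 18 in SRA-/- libraries, or 57.3 ± 34.4 against 1.49 ± 1.02 CPM (SD, n = 3 each). Its groups did not overlap, wild type replicate 3 stood above the other wild type libraries, and edgeR gave a log2 fold change of -5.22 ± 0.53 (SE; adjusted p 0.0109).

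Both calls were lost in some of the fits with a library left out, while the directions held in all of them. Such a fit also has fewer libraries, so a lost call does not single out the library left out. mt-Nd3 had an adjusted p by edgeR of 0.101 when wild type replicate 2 was left out, 0.115 for wild type replicate 3, and 0.281, 0.0784 and 0.276 for SRA-/- replicates 1, 2 and 3, with log2 fold changes of 2.47 to 3.23 over the 6 libraries left out in turn. Gm28438 had 0.125 when wild type replicate 1 was left out, 0.124 for SRA-/- replicate 1 and 0.0951 for SRA-/- replicate 3, with log2 fold changes of -5.90 to -4.69. Counts of near-identical genes depend on where the aligner places a read, so both values are uncertain as levels of a transcript.

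**Figure D4:**
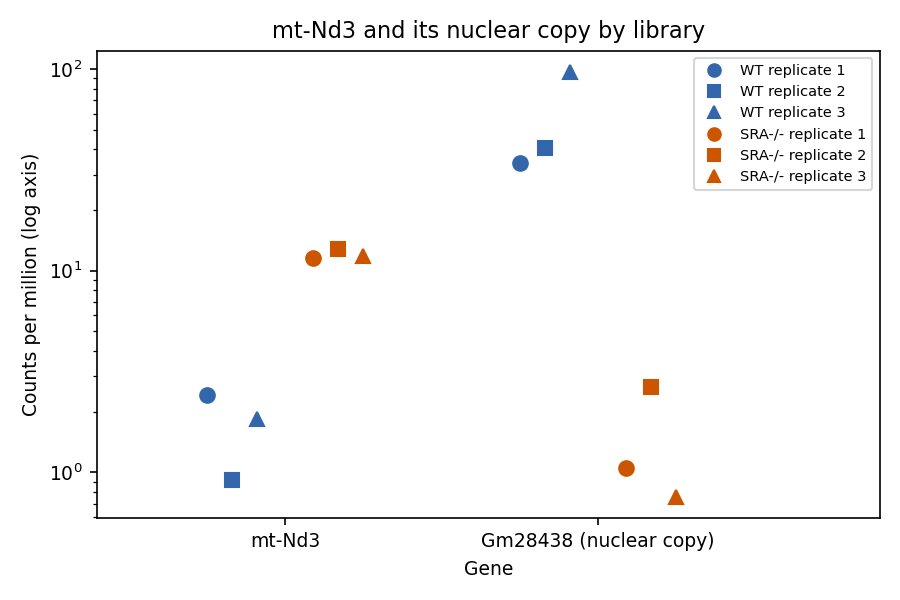
CPM (log axis) of mt-Nd3 and of its nuclear copy Gm28438 in each library. The SRA-/- libraries are all above the wild type libraries for mt-Nd3 and all below them for Gm28438.

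Expressed as the part of the pair's counts that fell on the mitochondrial gene, mt-Nd3 took 6.61% (95% Clopper-Pearson interval 4.82% to 9.0%, 2 counts taken as 1 fragment), 2.20% (1.19% to 3.97%) and 1.85% (1.21% to 2.62%) in wild type replicates 1, 2 and 3. In SRA-/- replicates 1, 2 and 3 it took 91.7% (87.8% to 94.7%), 82.8% (77.1% to 87.3%) and 94.0% (88.1% to 96.8%). The difference of means was 85.9 percentage points, and the exact permutation p was 0.1, the smallest that 3 against 3 libraries can give. The sum of the pair also differed without overlap, at 36.7, 41.7 and 98.6 CPM in wild type against 12.6, 15.4 and 12.6 CPM in SRA-/- libraries (exact permutation p 0.1). The deposited counts do not hold the reads' letters, so the base that reads carried at the mismatched position was not analysed here.

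The summed pancreatic acinar list, like Gm28438, was lower in every SRA-/- library than in every wild type library. It took 0.0519%, 0.0540% and 0.108% of the counts in wild type replicates 1, 2 and 3. In SRA-/- replicates 1, 2 and 3 it took 0.000493%, 0.0371% and 0.000312%. The list was chosen on these libraries, so its values are a description and not a test. Of its 21 genes 17 were tested, 17 had negative log2 fold changes and 0 were at 0 counts in every library. Of the 17, 15 were lower in SRA-/- cells without overlap, against 3.12% of all tested genes. Gm28438 had 34.3, 40.8 and 96.8 CPM in wild type replicates 1, 2 and 3. It had 1.05, 2.65 and 0.758 CPM in SRA-/- replicates 1, 2 and 3. The summed neutrophil list, of which 6 of 9 genes were tested and 6 were positive, was 0.00124%, 0.00306% and 0.00400% in wild type against 0.0130%, 0.00392% and 0.0149% in SRA-/- libraries. Of these 6, 3 were higher in SRA-/- cells without overlap, against 3.51% of all tested genes. SRA-/- replicate 2 lay within the wild type range of the summed neutrophil list, and SRA-/- replicates 1 and 3 lay above it. The summed lymphocyte list separated the groups, at 0.00125%, 0.00164% and 0.00193% in wild type against 0.00228%, 0.00323% and 0.00227% in SRA-/- libraries, and was highest in SRA-/- replicate 2. mt-Nd3 was highest in that library too, with 11.5, 12.8 and 11.8 CPM in SRA-/- replicates 1, 2 and 3. All 9 tested genes of the lymphocyte list had positive log2 fold changes, and 4 of the 9 were higher without overlap, against 3.51% of all tested genes. The part of these cell types in the values of the pair was not tested.

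The pairs on either side of mt-Nd3 also separated the genotypes, with a larger part on the mitochondrial gene in SRA-/- libraries, and the other pairs overlapped. A dependence on the distance from the mismatch was not tested. Gm28437, the copy of mt-Co3, a core subunit of complex IV whose 3′ end lies 72 bases from the mismatch, had 34.3, 27.8 and 59.6 CPM in wild type against 13.6, 23.2 and 5.6 CPM in SRA-/- libraries. It was lower in each SRA-/- library, and edgeR gave a log2 fold change of -1.50 ± 0.44 (SE; adjusted p 0.931), which was -0.84 with replicate 3 of both genotypes left out. mt-Co3 itself had 33.1, 14.6 and 18.8 CPM in wild type against 20.7, 38.6 and 14.6 CPM in SRA-/- libraries, overlapping, with a log2 fold change of 0.12 ± 0.41 (SE). The part of the pair on mt-Co3 was 49.2%, 34.4% and 24.0% in wild type against 60.3%, 62.4% and 72.3% in SRA-/- libraries, without overlap.

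On the other side Gm10222, the copy of the complex I gene mt-Nd4l, had 8.61, 7.94 and 15.6 CPM in wild type against 4.66, 5.28 and 1.60 CPM in SRA-/- libraries. It too was lower in each SRA-/- library, and edgeR gave a log2 fold change of -1.45 ± 0.40 (SE; adjusted p 0.841), which was -0.83 with the same libraries left out. mt-Nd4l had 10.8, 5.99 and 9.27 CPM in wild type against 9.59, 15.6 and 5.26 CPM in SRA-/- libraries, with a log2 fold change of 0.21 ± 0.38 (SE). The part of the pair on mt-Nd4l, which begins 416 bases from the mismatch and beyond the stretch in which the copy is longer by 1 base, was 55.6%, 43.0% and 37.2% in wild type against 67.3%, 74.8% and 76.7% in SRA-/- libraries, without overlap. For both of these pairs the exact permutation p was 0.1, and 0.233 after Benjamini-Hochberg adjustment over the 7 pairs, as for mt-Nd3.

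The remaining pairs overlapped. The part on mt-Atp6, the proton channel subunit of the ATP synthase, 857 bases away, was 48.3%, 42.8% and 31.4% in wild type against 35.4%, 45% and 36.5% in SRA-/- libraries (exact permutation p 0.9). For mt-Co2, a copper-bearing subunit of complex IV, 1768 bases away, it was 57.2%, 55.7% and 53.6% in wild type against 57.0%, 55.1% and 51.0% in SRA-/- libraries (exact permutation p 0.6). Their copies Gm10925 and Gm28661 had 36.1 ± 12.6 and 36.3 ± 10.3 CPM in wild type against 33.3 ± 16.4 and 32.5 ± 17.0 CPM in SRA-/- libraries (SD, n = 3 each). For mt-Nd4 with Gm28439 and mt-Co1 with Gm29216, the mitochondrial genes have long stretches outside the copy. They took 99.5% to 99.9% of the pair's counts over the libraries. Reads from those stretches enter this share, so it could show little of a shift within the copied part. Gm28439 had 20.2 ± 6.74 against 16.2 ± 9.92 CPM and Gm29216 38.4 ± 19.1 against 31.8 ± 15.3 CPM (SD, n = 3 each), wild type first. The widest interval of a share among the 5 wholly copied pairs was ± 9.77 percentage points, for mt-Nd4l.

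**Figure D5:**
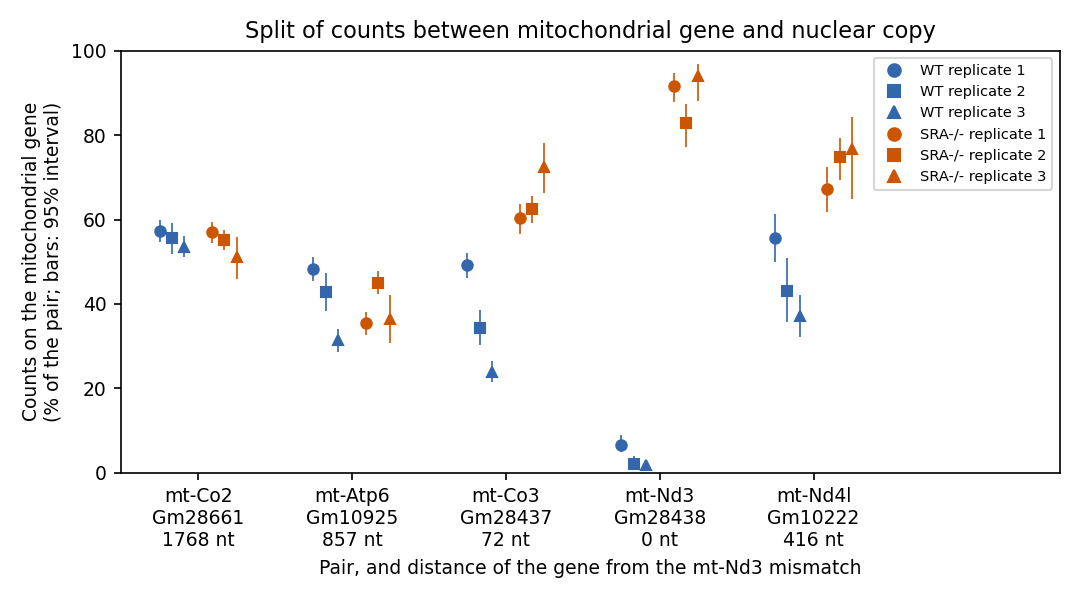
Part of each pair's counts that fell on the mitochondrial gene (percent, with 95% Clopper-Pearson intervals that cover counting error only) for the 5 wholly copied genes in map order, with the distance of each from the mismatch in mt-Nd3. The genotypes do not overlap for mt-Co3, mt-Nd3 and mt-Nd4l and overlap for mt-Co2 and mt-Atp6.

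mt-Atp8, a small subunit of the ATP synthase, lies within the copied segment but has no annotated pseudogene there. It had 2.64, 0.519 and 1.09 CPM in wild type against 1.05, 2.65 and 0.463 CPM in SRA-/- libraries, overlapping. With 6.88 CPM per kb it was the lowest protein gene, and its 3′ end overlaps mt-Atp6, where a read that touches both genes was not counted.

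The tRNA genes, 59 to 75 bases long, were close to unmeasured by these libraries. Of the 22, 10 had 0 counts in all libraries, which allows up to 0.136 to 0.253 CPM per library, 7 had 1 to 3 counts in all, and 5 had more. The 17 with few or no counts have at most 3 unannotated bases on either side. A read that reaches beyond those bases touches a neighbouring gene, and the counting left out such reads. Whether this sets their low counts was not tested. mt-Tp, the proline tRNA (15356 to 15422, light strand), is the last gene before the unannotated control region and had by far the most. It is the tRNA on which most of the class rests, and its sequence, printed 5′ to 3′ for its own strand, is as follows.
mt-Tp: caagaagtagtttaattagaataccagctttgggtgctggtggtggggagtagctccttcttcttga

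mt-Tp had 160, 124 and 150 CPM in wild type against 138, 278 and 89.2 CPM in SRA-/- libraries. The groups overlapped, with SRA-/- replicates 2 and 3 at the 2 ends, as for most mitochondrial mRNAs, and the log2 fold change was 0.21 ± 0.36 (SE). mt-Tn and mt-Tc, the asparagine and cysteine tRNAs, border a gap of 32 bases that holds the origin of light-strand replication, and had 0.463 to 2.89 and 0.631 to 1.81 CPM. mt-Tf, the phenylalanine tRNA at the first base of the numbered genome, had 0.253 to 0.615 CPM, and mt-Te, the glutamate tRNA, had 0 to 13 counts. A read that reaches from unannotated sequence into a tRNA gene is counted for it, so none of these values is a level of the mature tRNA.

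Nuclear genes that serve mitochondrial DNA and RNA differed little. Of 19 genes for transcription and replication 18 were tested: 0 passed edgeR's test, 0 had an unadjusted p under 0.05, and DESeq2 and limma-voom called 0. Their median log2 fold change was 0.14, and 12 of 18 were positive against 48.3% of all tested genes. Twnk, the replicative helicase, had 13.7, 13.8 and 14.9 CPM in wild type against 16.0, 16.8 and 15.4 CPM in SRA-/- libraries, without overlap and with a log2 fold change of 0.21 ± 0.17 (SE). Ssbp1, the single-stranded DNA binding protein, had 6.46, 7.02 and 7.35 CPM in wild type against 5.93, 6.12 and 4.71 CPM in SRA-/- libraries, also without overlap, with a log2 fold change of -0.29 ± 0.21 (SE). These were the 2 genes of the 18 whose groups did not overlap, against 6.63% of all tested genes. Polg, the catalytic subunit of the DNA polymerase and the most abundant of the list, had 116 ± 12.5 and 118 ± 5.15 CPM (SD, n = 3 each).

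Of 30 genes for processing, modification and decay of mitochondrial RNA 29 were tested, 0 passed edgeR's test and DESeq2 and limma-voom called 0. The median log2 fold change was 0.0059, and 1 gene had an unadjusted p under 0.05, against 3.22% of all tested genes. It was Trmt61b, a methyltransferase of mitochondrial RNA, with 3.11, 3.87 and 2.69 CPM in wild type against 4.34, 6.65 and 4.38 CPM in SRA-/- libraries. The groups did not overlap, and edgeR gave it a log2 fold change of 0.68 ± 0.28 (SE; adjusted p 0.99994). Hsd17b10, a subunit of the enzyme that cuts the 5′ ends of mitochondrial tRNAs, had 29.7, 53.3 and 60.7 CPM in wild type against 39.5, 23.9 and 40.3 CPM in SRA-/- libraries, overlapping, with a log2 fold change of -0.41 ± 0.27 (SE). Lrpprc, which stabilises mitochondrial mRNAs and was the most abundant of the list, had 92.9 ± 16.9 and 92.8 ± 8.65 CPM (SD, n = 3 each).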

How the data were processed

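Total RNA of liver non-parenchymal cells (3 wild type and 3 SRA-/- libraries, grouped by title) was sequenced after rRNA depletion, per the labels' protocols. The submitters' processing notes list mm39 as build and FastQC, STAR and featureCounts as tools. Per the file headers, the deposited values are raw counts that the authors made with featureCounts 2.0.2 over exons by gene name, without strand, leaving out reads with several alignments or several genes. Aligner settings, mouse strain and age were not given in the sources used here. No pair of libraries within a group agreed within sampling noise.

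Counts were fitted over all genes in R 4.3.3 with edgeR 4.0.16 (filterByExpr, TMM, robust quasi-likelihood test on group, Benjamini-Hochberg adjustment over 20541 genes, threshold 0.05), a procedure tested on simulated data. CPM are counts per 1000000 gene counts of the library. Pairs were aligned with Biopython 1.88. Members with calls, pseudogenes, their counterparts, rRNAs, abundant mRNAs and tRNAs, and 3 genes of each pathway list (smallest p, most abundant) are named. The members and lists were chosen with earlier results of these data known. Alternatives were other scalings, DESeq2 1.42.0, limma-voom (limma 3.58.1), other filters, a block on replicate number, leaving out each library and, chosen after seeing the data, wild type replicate 3 and SRA-/- replicate 3 left out together.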

Additional observations from a re-analysis of the deposited data

How the results depend on the processing

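The count of members called was 2. It was 1 with scaling without the members, with no filter, with a filter of 1 CPM in 3 libraries, with the replicate number as a block and with replicate 3 of both genotypes left out (the libraries lowest and highest in hepatocyte RNA, chosen after seeing the data), and 0 to 1 with each library left out in turn. mt-Nd3 was lost with scaling without the members (adjusted p 0.0508, log2 fold change 2.79), the filter of 1 CPM (0.0755, 2.78), the block (0.167, 2.89) and both replicates 3 left out (0.323, 2.72), and Gm28438 with no filter (0.298, log2 fold change -5.22), all by edgeR, and the cause was not tested. By limma-voom the log2 fold change of mt-Nd3 was 3.50, and with both replicates 3 left out those of Gm28438, Gm28437 and Gm10222 were -4.44, -0.84 and -0.83 by edgeR. The count over all genes was 10, with 65 by DESeq2, 75 by limma-voom, 32 with no filter, 5 with the replicate block and 3 to 40 with a library left out. Replicate numbers gave no sign of pairing. Deviations from the group mean correlated across genes at -0.29, -0.14 and -0.13 for same-numbered libraries and at -0.086 to 0.26 for differently numbered ones. Such values, taken within groups of 3, cannot exclude shared handling by replicate number.

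The difference in mitochondrial share (-2.30 percentage points) was -0.58 without the rRNAs, -6.35 to 0.88 with a library left out and 1.29 without both replicates 3. That of the part on mt-Nd3 was 83.7 to 89.3 percentage points with a library left out. With a library left out that of mt-Atp6 was -6.51 to 1.93, of mt-Co2 -2.39 to 0.58 and of mt-Co1 -0.0047 to 0.030, and without both replicates 3 it was -0.00034 for mt-Nd4 and -0.019 for mt-Co1. With a library left out log2 fold changes ran from -0.35 to 0.67 for mt-Co3, -0.23 to 0.52 for mt-Nd4l, -1.43 to 0.10 for mt-Rnr2 and -0.34 to 0.49 for mt-Tp. Scaling to the sum of the mitochondrial mRNAs moved the median of all genes to 0.21 and left the 2 calls. What limits the counts of the tRNA genes and of the copied genes was not tested.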
